A study of Mus musculus with 6 samples.

Results

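Platelet-derived growth factors (PDGFs) and their receptors were measured in lungs of Carm1 knockout mice and of wild-type mice. Carm1 codes for a coactivator of transcription that methylates arginines in histones and other proteins. The 6 genes of the family were the ligand genes Pdgfa, Pdgfb, Pdgfc and Pdgfd and the receptor genes Pdgfra and Pdgfrb. All probe sets whose platform gene symbol was one of these were taken, which gave 14 of the 45101 probe sets on the array, 9 for the ligands and 5 for the receptors. A probe set is a group of short probes against 1 transcript whose signals are combined into 1 value. Lung RNA of 3 samples described as Carm1 knockout (spelled CRAM1 in their genotype field) and of 3 described as wild type was hybridised, 1 sample to each of 6 Affymetrix arrays. The knockout lungs were labelled embryonic day 18.5. The wild-type labels say neonatal, although the study's design text gives the same embryonic day for both genotypes, so age and genotype cannot be told apart from the labels. The labels name no strain, no litter and no part of Carm1 that was deleted, and they do not say that the samples came from separate fetuses, so the p-values measure only the spread between these samples.

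PDGFs are secreted dimers that bind receptor tyrosine kinases on mesenchymal cells. In the developing lung, PDGF-A from the epithelium acts on fibroblasts bearing the receptor PDGFR-alpha, and mice without Pdgfa lack the alveolar myofibroblasts that lay down elastin in the septa. PDGF-B from endothelium recruits pericytes through PDGFR-beta. PDGF-C and PDGF-D are secreted with a CUB domain that proteases must remove, after which PDGF-C acts mainly on PDGFR-alpha and PDGF-D on PDGFR-beta.

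Signals are MAS5 values on a linear scale in array units. Differences are knockout minus wild type in log2 signal from limma, with p-values adjusted by Benjamini-Hochberg over the 27022 probe sets whose mean signal was above 59.7, the filter on dim probe sets. The arrays were of similar brightness, with a median signal between 106 and 121. Correlations between arrays over the tested probe sets lay between 0.937 and 0.969. By Xist and transcripts of the Y chromosome, 2 arrays were male, knockout replicate 2 and wild type replicate 3, and 4 were female. The 24 probe sets for added bacterial RNA were bright on wild type replicates 1 and 3 and near background on the 3 knockout arrays and wild type replicate 2. Values from those 4 arrays alone are given below as values without bacterial RNA, and they rest on 1 wild-type array. All 10 epithelial markers were above the filter, among them the surfactant gene Sftpc at 52420 ± 3618 in knockout and 50143 ± 6509 in wild type (SD, n = 3 each), as in lung. Signal at the 1 probe set of Carm1 was 395, 374 and 511 on the knockout arrays, against 814, 678 and 865 on the wild-type arrays. The log2 difference was −0.89, a ratio of 54.0% (95% confidence interval 41.7% to 70.0%, adjusted p = 0.105), and the groups did not overlap. Whether that probe set lies in the deleted part is not known here, so it checks the labels only in part.

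Pdgfa and Pdgfd were the PDGF genes with the lowest knockout signals relative to wild type, and the 3 knockout arrays lay below the 3 wild-type arrays at both probe sets of Pdgfa and at 1 of 2 tested probe sets of Pdgfd. Pdgfra was lower at its brightest probe set by a smaller amount, and its other 2 probe sets did not separate the genotypes. For Pdgfb, Pdgfc and Pdgfrb the genotypes overlapped at every probe set. No PDGF difference passed the adjusted threshold. In whole-lung RNA, fewer cells of a type and less RNA per cell cannot be told apart. In limma fitted across all tested probe sets, 0 of 13 tested PDGF probe sets had an adjusted p under 0.05, where 0.0296% of the 27022 tested probe sets did, and 0.0259% did so with the lower signal in knockout. At an unadjusted p under 0.05 there were 4 PDGF probe sets, all lower in knockout, against 13.6% of all tested probe sets in either direction and 6.31% in the lower direction. The same 4 probe sets were those whose groups did not overlap, where 20.0% of all tested probe sets had groups that did not overlap, 9.36% with the knockout arrays lower and 10.7% with them higher. The remaining probe set, 1 of 3 for Pdgfd, lay below the filter on dim signals and was not tested.

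**Figure D1:**
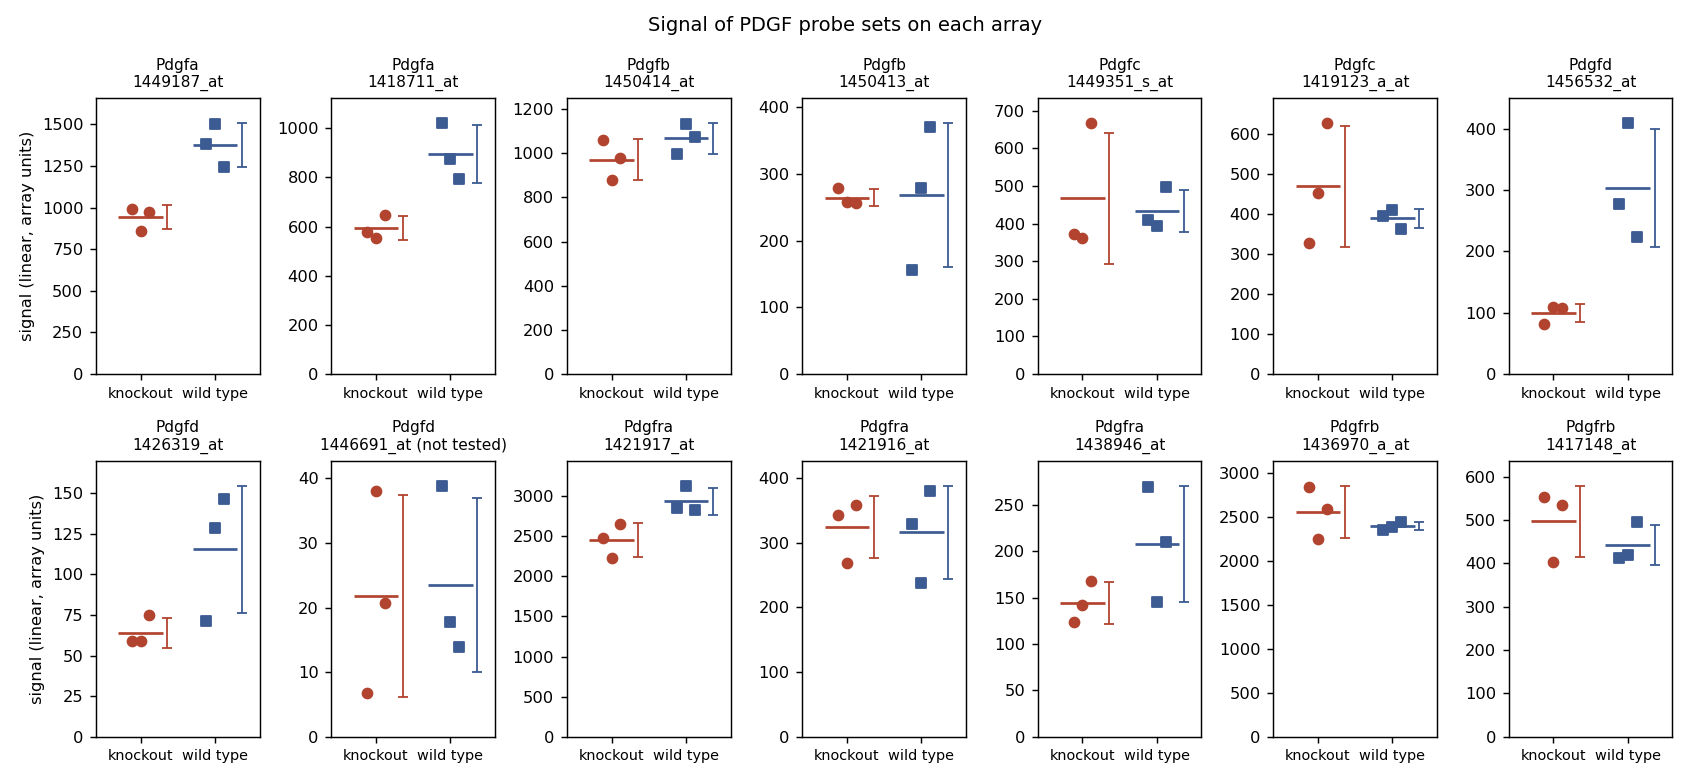
Signal (linear, array units) of the 14 PDGF probe sets on each array, 1 panel per probe set, with knockout arrays as circles on the left and wild-type arrays as squares on the right, replicates 1 to 3 from left to right in each group. Horizontal lines are means and bars are ± SD over 3 arrays; the knockout arrays lie below all wild-type arrays at both Pdgfa probe sets, at Pdgfd 1456532_at and at Pdgfra 1421917_at.

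Sequences just around the annotated transcription start are shown for Pdgfa, Pdgfd and Pdgfra, the genes with a probe set at which the genotypes did not overlap. Each window holds 300 bases, 250 before and 50 from the start onwards, from RefSeq on GRCm38.p6, read in the direction of transcription. RefSeq windows were searched for 4 of the 6 genes, Pdgfa, Pdgfc, Pdgfd and Pdgfra, and Pdgfa has a pair of them. No window was searched for Pdgfb or Pdgfrb, which does not show that RefSeq holds none for them. Capitals mark matches to the motifs searched on both strands, namely TATAAA for the TATA box, CCAAT for the CCAAT box, GGGCGG for the GC box and AGAACA for the glucocorticoid receptor half-site. None of these motifs contains another.
Pdgfa, window 1, chr5:138994232-138994531, minus strand: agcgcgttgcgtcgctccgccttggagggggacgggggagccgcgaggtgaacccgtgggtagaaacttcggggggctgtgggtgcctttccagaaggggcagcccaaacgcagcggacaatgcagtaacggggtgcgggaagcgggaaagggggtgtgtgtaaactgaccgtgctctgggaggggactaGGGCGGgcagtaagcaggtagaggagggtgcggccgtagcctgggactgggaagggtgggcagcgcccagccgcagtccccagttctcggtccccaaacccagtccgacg
Pdgfa, window 2, chr5:138994895-138995194, minus strand: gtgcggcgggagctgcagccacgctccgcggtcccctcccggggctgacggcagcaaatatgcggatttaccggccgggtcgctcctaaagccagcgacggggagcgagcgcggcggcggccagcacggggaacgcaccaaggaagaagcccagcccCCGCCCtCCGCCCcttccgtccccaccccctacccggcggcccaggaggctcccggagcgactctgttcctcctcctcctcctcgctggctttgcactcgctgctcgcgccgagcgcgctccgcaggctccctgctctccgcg
Pdgfd, chr9:6168236-6168535, plus strand: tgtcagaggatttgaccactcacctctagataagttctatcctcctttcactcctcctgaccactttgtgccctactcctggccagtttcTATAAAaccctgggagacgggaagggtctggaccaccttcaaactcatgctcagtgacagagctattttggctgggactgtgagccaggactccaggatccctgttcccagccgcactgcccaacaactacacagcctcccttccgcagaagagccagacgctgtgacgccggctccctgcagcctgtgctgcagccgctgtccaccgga
Pdgfra, chr5:75152001-75152300, plus strand: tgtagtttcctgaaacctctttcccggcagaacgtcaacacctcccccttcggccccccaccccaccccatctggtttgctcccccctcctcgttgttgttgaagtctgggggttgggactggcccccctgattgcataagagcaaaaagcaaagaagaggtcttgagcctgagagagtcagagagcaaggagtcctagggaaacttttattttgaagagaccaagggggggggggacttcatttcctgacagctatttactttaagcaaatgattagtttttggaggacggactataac

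Both Pdgfa windows were rich in G and C, at 67% and 73.3%, against a median of 52.7% over all 32851 RefSeq windows of this length. The Pdgfa windows held 1 and 2 matches to the GC box, which 35.7% of all windows contained. The Pdgfd window, at 56.7% G and C, held 1 TATAAA, which began 160 bases before the start and was present in 13.6% of all windows. In the Pdgfra window, at 51% G and C, none of the 4 motifs was found. AGAACA, which 19.0% of all windows held, was in none of the 4 windows printed. These matches describe letters only and no binding was measured.

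Among the ligands, Pdgfa (chromosome 5) was measured by a pair of probe sets that behaved alike. At 1449187_at, the brighter one, the signal was 992, 858 and 975 on the knockout arrays, against 1383, 1504 and 1243 on the wild-type arrays. The lowest wild-type array thus lay above the highest knockout array. The means were 942 ± 72.7 in knockout and 1377 ± 131 in wild type (SD, n = 3 each). The ratio of knockout to wild type was 68.4%, with 95% confidence limits of 56.8% and 82.4% (log2 difference −0.55, SE 0.12, adjusted p = 0.135). At 1418711_at the signal was 577, 554 and 648 in knockout, against 1021, 874 and 792 in wild type, again without overlap. The ratio there was 66.4% (95% confidence interval 53.6% to 82.4%, log2 difference −0.59, adjusted p = 0.147). Permuting the arrays of either probe set exactly gave a two-sided p of 0.1, and 3 against 3 arrays can give none smaller. Without bacterial RNA the log2 differences were −0.68 and −0.56.

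Pdgfd (chromosome 9) had the widest difference of the family. At 1456532_at the signal was 82.4, 109 and 109 on the knockout arrays, against 278, 409 and 223 on the wild-type arrays. Every wild-type array was above every knockout array, and the knockout arrays were close to each other while the wild types were spread. The means were 99.9 ± 15.2 in knockout and 303 ± 95.8 in wild type (SD, n = 3 each), which is 2.96-fold lower in knockout by geometric means. The log2 difference was −1.57 (SE 0.27, 95% confidence interval −2.19 to −0.95, adjusted p = 0.0934), and it was −2.05 without bacterial RNA. Each knockout signal lay below the median signal of its array, and with 32 added to every value the log2 difference was −1.31. The second tested probe set, 1426319_at, gave 58.8, 58.8 and 74.8 in knockout, against 71.3, 128 and 147 in wild type, so that knockout replicate 3 lay just above wild type replicate 1. Its log2 difference was −0.79 (SE 0.36, adjusted p = 0.380). The knockout signals lay close to the filter. The third, 1446691_at, was dimmer than the filter on every array, from 6.71 to 38.0 in knockout and from 13.9 to 38.9 in wild type, and no fold is given for it.

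Pdgfb (chromosome 15), the ligand that endothelium uses to recruit pericytes, overlapped between genotypes at both probe sets. At 1450414_at the signal was 1059.8, 879 and 977 in knockout, against 996, 1134 and 1073 in wild type. The log2 difference was −0.14 with a 95% confidence interval from −0.40 to 0.13 (adjusted p = 0.648). A level below 75.6% of the wild-type level thus lies outside the interval of this probe set. At 1450413_at the 3 knockout arrays were close together, at 279, 257 and 256, and lay within the range of the wild types, at 156, 279 and 370.4. That probe set had a log2 difference of 0.064 with a wider 95% confidence interval, from −0.60 to 0.73. The difference became −0.28 when wild type replicate 1 was left out and −0.078 without bacterial RNA.

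Pdgfc (chromosome 3), like Pdgfa the gene of a PDGFR-alpha ligand, also overlapped. At 1449351_s_at, a probe set that by its suffix may also detect related transcripts, the signal was 372, 361 and 667 in knockout, against 411, 394 and 497 in wild type. At 1419123_a_at it was 327, 453 and 626 in knockout, against 394, 408 and 362 in wild type. Knockout replicate 3 was the highest of the 6 arrays at both. The log2 differences were 0.052 (95% confidence interval −0.50 to 0.60) and 0.22 (−0.29 to 0.74), and without that array they were −0.24 and −0.011, and the first was at −0.014 without wild type replicate 2. Neither direction held whichever array was left out.

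Of the receptors, Pdgfra (chromosome 5) gave probe sets that differed in what they showed. At the brightest, 1421917_at, the signal was 2475, 2230.3 and 2656 on the knockout arrays, against 2848, 3129 and 2824 on the wild-type arrays. The groups did not overlap, by a gap that is small beside the levels. Means were 2454 ± 214 in knockout and 2934 ± 169.9 in wild type (SD, n = 3 each), and the ratio of knockout to wild type was 83.5% (95% confidence interval 71.1% to 98.1%, log2 difference −0.26, SE 0.10, adjusted p = 0.320). At 1421916_at the signal was 343, 269 and 358 in knockout, against 329, 238 and 380.4 in wild type, with full overlap. The third, 1438946_at, gave 124, 142 and 168 in knockout, against 269.9, 145 and 210.2 in wild type, where knockout replicate 3 lay above wild type replicate 2. Their log2 differences were 0.052 (95% confidence interval −0.44 to 0.54) and −0.49 (−1.11 to 0.13). Without bacterial RNA the 3 values were −0.35, 0.43 and −0.017 in the order named here, so only the brightest probe set was lower by a like amount on those arrays.

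Pdgfrb (chromosome 18), the receptor of pericytes and smooth muscle, overlapped at both of its probe sets. At 1436970_a_at the signal was 2835, 2245 and 2583 in knockout, against 2349, 2381 and 2444 in wild type. The knockout arrays lay on both sides of the wild types, which were within a narrow range. The log2 difference was 0.089 with a 95% confidence interval from −0.16 to 0.33 (adjusted p = 0.765). A knockout level below 89.8% or above 126% of the wild-type level thus lies outside the interval of this probe set. At 1417148_at the signal was 553, 403 and 536 in knockout, against 412, 419.8 and 496 in wild type, with a log2 difference of 0.16 (95% confidence interval −0.22 to 0.54).

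**Figure D2:**
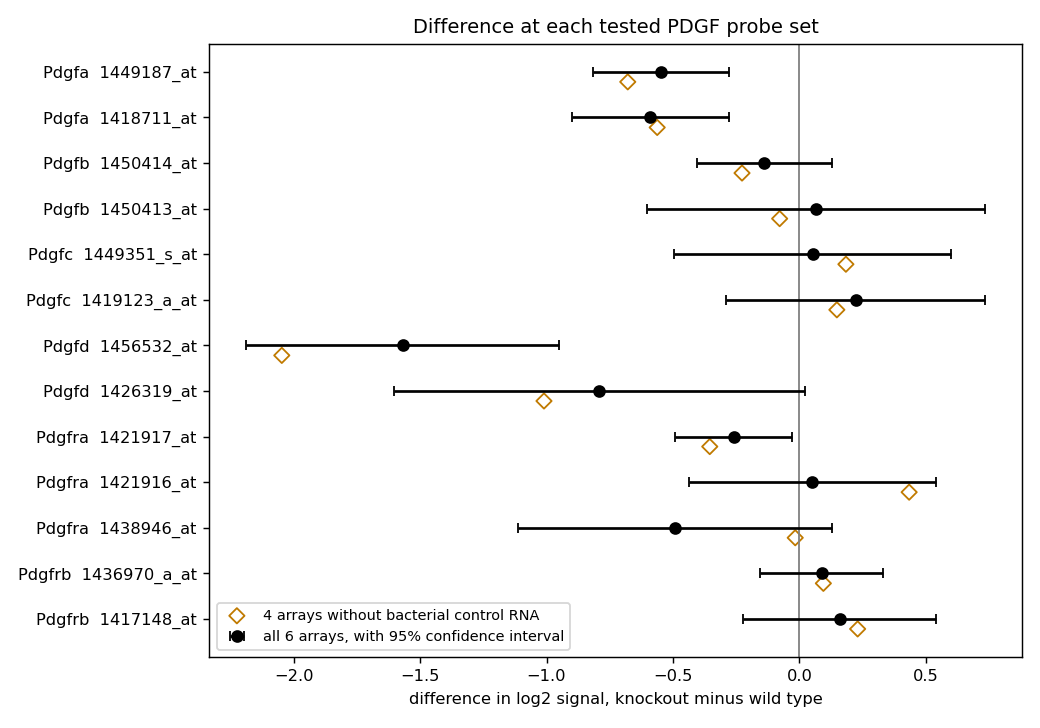
Difference in log2 signal, knockout minus wild type, at each of the 13 tested PDGF probe sets. Filled circles with bars are the fit over all 6 arrays with its 95% confidence interval, and open diamonds the value on the 4 arrays without bacterial control RNA; the intervals of both Pdgfa probe sets, Pdgfd 1456532_at and Pdgfra 1421917_at lie below 0.

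Genes that lie next to the receptors in the RefSeq gene order gave values of their own. Pdgfra is followed on chromosome 5 by Kit, a related receptor kinase, and by Kdr, a receptor of vascular endothelial growth factor. The log2 differences of these neighbours were 0.23 for Kit (adjusted p = 0.662) and −0.48 for Kdr (adjusted p = 0.192). Pdgfrb is followed on chromosome 18 by Csf1r, the receptor of macrophage colony-stimulating factor, at 0.19 (adjusted p = 0.637).

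Other genes of the PDGF pathway were read from lists, with the brightest tested probe set standing for each gene. None of their members passed the adjusted threshold in either direction. Over all 27022 tested probe sets 47.3% were lower in knockout and the median log2 difference was 0.019. The groups did not overlap in 20.0% of them, 9.36% with the knockout arrays lower and 10.7% with them higher. Of 9 tested genes that process or bind PDGFs outside the cell, 7 were lower and 2 higher with a median of −0.091, and the groups did not overlap in 3, all lower. Nrp1, a co-receptor, had means of 4206 ± 390.3 in knockout and 5599 ± 754 in wild type (log2 difference −0.41, adjusted p = 0.222), and all 4 of its tested probe sets were lower. For Lrp1, an endocytic receptor that associates with PDGFR-beta, the difference was −0.39 (adjusted p = 0.274). The protease gene Plat, whose product activates PDGF-C and which was named after its value was seen, was at 449 ± 117 in knockout and 301 ± 84.6 in wild type (log2 difference 0.58, 95% confidence interval −0.022 to 1.18). Plau was below the filter.

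Among 17 tested effectors of PDGF receptors, 10 were lower and 7 higher, with a median of −0.021, which was −0.11 without bacterial RNA and 0.025 without wild type replicate 2. Groups did not overlap in 5 that were lower and 3 that were higher, against 9.36% and 10.7% of all tested probe sets. The regulatory subunit gene of PI3-kinase, Pik3r1, was at 1449.5 ± 199 in knockout and 2168 ± 181 in wild type, a log2 difference of −0.59 (adjusted p = 0.135). Its 4 tested probe sets were all lower. Stat3, a transcription factor that receptor kinases can activate, had a log2 difference of −0.43 (adjusted p = 0.256) at its brightest probe set, and 1 of its 4 tested probe sets was higher.

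Attenuators of receptor signalling had a median of −0.092. Of the 10, 8 were lower, and in 3 of these the groups did not overlap, as in 9.36% of all tested probe sets with the knockout arrays lower. Spry4, which encodes a feedback inhibitor of the Ras pathway, was at 378 ± 51.6 in knockout and 529 ± 75.6 in wild type (log2 difference −0.49, adjusted p = 0.271), although its second probe set did not separate the groups. Dusp6, a phosphatase of ERK kinases, differed by −0.32 (adjusted p = 0.288). Of 8 tested growth factor response genes, 5 were lower and 3 higher with a median of −0.35, which was −0.18 without bacterial RNA and −0.17 without wild type replicate 1. Jun, a subunit of the AP-1 transcription factor, had a signal of 2459.6, 2656 and 2471 in knockout, against 3931, 3514 and 3551 in wild type, with no overlap and a log2 difference of −0.53 (SE 0.093, adjusted p = 0.0934). Its partner Fos differed by −0.60 (SE 0.15, adjusted p = 0.160).

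The receptors most like PDGFRs belong to the same class of kinases. Of 5 tested genes for those receptors and their ligands, 2 were higher, the receptor genes Kit and Csf1r, and 3 ligand genes were lower. The median was −0.32, but −0.056 without bacterial RNA and −0.095 without knockout replicate 1. Kitl, the ligand of Kit, was at 6107 ± 946 in knockout and 8742 ± 689 in wild type (log2 difference −0.53, adjusted p = 0.153), lower at all 4 tested probe sets. Il34, a ligand of Csf1r, differed by −0.58 (adjusted p = 0.399) with overlap between the groups.

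**Figure D3:**
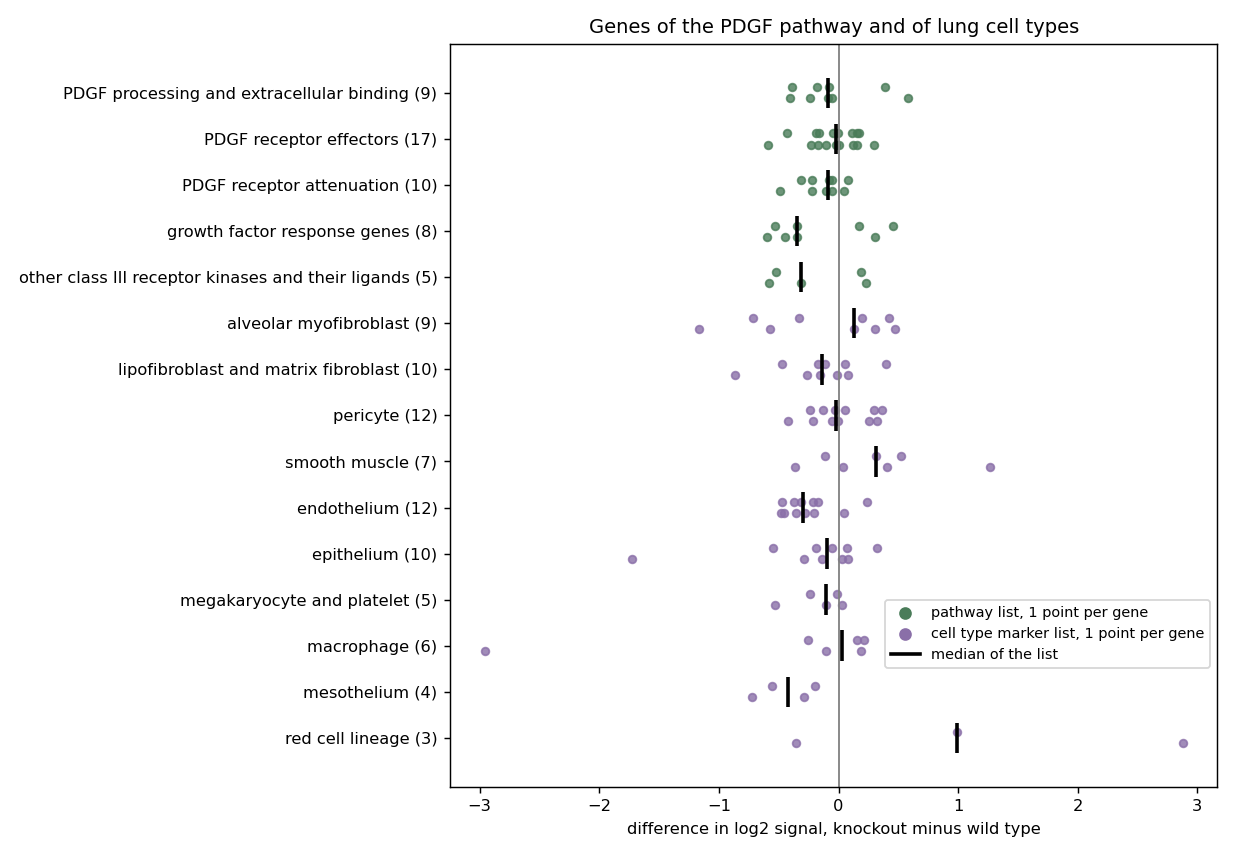
Difference in log2 signal, knockout minus wild type, for single genes of the PDGF pathway lists and of the cell type marker lists, 1 point per gene, with the number of tested genes in brackets and the list's median as a vertical line. The endothelial median is at −0.30 and that of pericytes at −0.017.

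Cells that make or receive PDGFs were followed through marker lists, and their part in the PDGF differences was not tested. Of 10 markers of epithelium, which makes PDGF-A, 6 were lower and 4 higher, and none was below the filter. Their median was −0.097, which was 0.012 without knockout replicate 3 and 0.0063 without bacterial RNA. Their summed signal, in which Sftpc was the brightest gene, ran from 131869 to 148970.0 in knockout and from 139435 to 180608 in wild type, with overlap. The alveolar type I genes Aqp5 and Ager had log2 differences of −1.72 and −0.55 (adjusted p = 0.0934 and 0.262). Endothelial markers, for cells that make PDGF-B, had 10 of 12 lower and a median of −0.30. In 6 of the 12 the groups did not overlap, all lower, against 9.36% of all tested probe sets. The summed signal of the endothelial markers ran from 24777 to 28192 in knockout and from 30724 to 34828 in wild type, without overlap. Cldn5 and Kdr differed by −0.45 and −0.48 (adjusted p = 0.192 for both).

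Among cells that bear the receptors, alveolar myofibroblast markers went both ways, 5 higher and 4 lower, and 1 of the 10, Egfem1, was below the filter. The groups did not overlap in the 4 lower genes, against 9.36% of all tested probe sets, and overlapped in all 5 higher ones. Their median was 0.13, which was 0.014 without knockout replicate 2, 0.24 without knockout replicate 1 and −0.036 on the 4 female arrays. The summed signal, in which elastin was the brightest gene, ran from 29356 to 34404 in knockout and from 36207 to 41899 in wild type, without overlap. Eln, elastin itself, and Hhip, an inhibitor of hedgehog signalling, had log2 differences of −0.71 and −1.16 (adjusted p = 0.0934 and 0.0852), each with no overlap. Acta2, the smooth muscle actin of myofibroblasts, named after its value was seen, was at 9286 ± 921 in knockout and 8107 ± 556 in wild type (log2 difference 0.19, 95% confidence interval −0.044 to 0.43). Lipofibroblast and matrix fibroblast markers had a median of −0.13, 7 of 10 being lower, and a summed signal from 63993 to 73454 in knockout and from 72707 to 88621 in wild type. The smallest p values were those of Limch1 at −0.47 (adjusted p = 0.160) and Npnt at −0.27 (adjusted p = 0.237).

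Pericyte markers had 7 of 12 lower and a median of −0.017, which was −0.11 without bacterial RNA and 0.036 without knockout replicate 1. They had a summed signal from 14142 to 14722 in knockout and from 14511 to 15082 in wild type, with overlap. Ndufa4l2 was higher by 0.30 and Kcnj8, a potassium channel gene, lower by a log2 difference of −0.43 (adjusted p = 0.243 and 0.275). Smooth muscle markers were higher in 5 of 7, and their median was 0.31, which was −0.030 without knockout replicate 3, 0.52 without knockout replicate 1 and 0.18 without bacterial RNA. Their summed signal ran from 1908 to 2910 in knockout and from 1908 to 1979 in wild type. Cnn1 had a log2 difference of 1.26 and Actg2 of 0.40 (adjusted p = 0.243 and 0.324), and Lmod1 was below the filter. The signal of Cnn1 was dim, at 182, 389 and 132 in knockout, against 112, 66.4 and 91.1 in wild type.

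Further lists covered other cells that a lung sample can hold. Platelet genes, whose cells store PDGF, had 4 of 5 lower and a median of −0.11. Leaving out knockout replicate 1 put that median at 0.092. Their summed signal ran from 3014 to 3275 in knockout and from 2869 to 3352 in wild type. Gp9 had a log2 difference of −0.53 (adjusted p = 0.495). Ppbp had a signal of 798, 91.8 and 87.9 in knockout, against 151, 316 and 222 in wild type, with knockout replicate 1 the highest of the 6 arrays and the other 2 knockout arrays the lowest (log2 difference −0.24, adjusted p = 0.921). Macrophage genes were split 3 and 3 with a median of 0.025, and the smallest p values belonged to Marco and Cd68 (adjusted p = 0.298 and 0.544). Marco had a signal of 198, 9.25 and 7.08 in knockout, against 228, 227 and 117 in wild type, so 1 knockout array lay within the wild-type range and the others far below the filter, and no fold is given. Cd68 had a log2 difference of −0.26. All 4 mesothelial genes were lower with a median of −0.42, Msln and Upk3b by log2 differences of −0.72 and −0.56 (adjusted p = 0.160 and 0.297). The 3 tested red cell genes had a median of 0.99, which was −0.48 without bacterial RNA. They included the embryonic globin Hbb-y, higher in knockout by 2.88 on the log2 scale (adjusted p = 0.135), and Alas2 at −0.36 (adjusted p = 0.475).

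Genes whose signal followed each PDGF gene most closely over the 6 arrays were taken by Pearson correlation of log2 values among tested probe sets with 1 symbol. With 6 points and so many probe sets to choose from, high values are to be had for any gene, so these are descriptions and no p is given. Pdgfa was followed by Frmd6 and Crispld2, both at r = 0.996, with the 6 arrays in the same rank order. Crispld2, which encodes a secreted glycoprotein, was lower in knockout by a log2 difference of −1.03. Pdgfd was followed by Camk2d (r = 0.997) and Mrtfa (r = 0.995), and Pdgfb by Vars2 (0.993) and Slc37a3 (0.991). For Pdgfc the genes were Efcab11 (r = 0.992) and Ube2j1 (r = 0.989). Pdgfra was followed by Ppp2r3a (r = 0.990) and Ap1s2 (r = 0.985), and Pdgfrb by Dtl (r = 0.991) and Myef2 (r = 0.990).

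**Figure D4:**
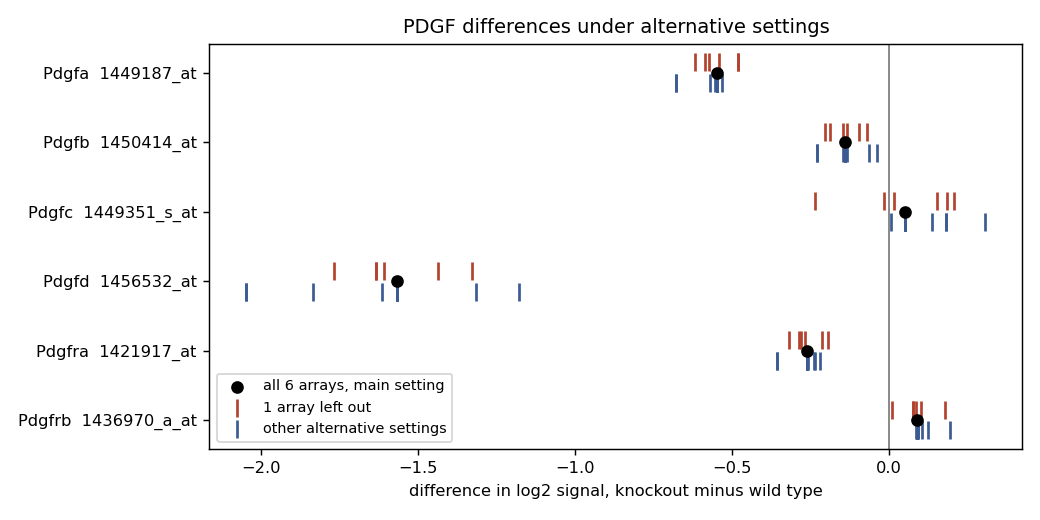
Difference in log2 signal, knockout minus wild type, for the brightest tested probe set of each PDGF gene. Black circles are the setting used in the text, and ticks are values with 1 array left out (above) or under other settings (below). Pdgfa stays between −0.68 and −0.48, Pdgfd between −2.05 and −1.18 and Pdgfra between −0.35 and −0.19. Pdgfb (−0.23 to −0.037) and Pdgfrb (0.010 to 0.19) also stay on 1 side of 0, whereas Pdgfc lies on both sides.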

How the data were processed

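The deposited values were intensities on a linear scale for 45101 probe sets, for which the submitters' processing notes name MAS5 as the authors' method (version not given in the sources used here). On every array the mean after trimming 2% at each end was 500.003, so each had been scaled to 1 level. Detection calls were not used here. Gene symbols came from the platform annotation, updated through gene IDs in RefSeq (GRCm38.p6), and 34945 probe sets had 1 symbol, 932 several and 9160 none. After 64 control probe sets were removed, those with a mean log2 signal above the 40th percentile (59.7) were kept, 27022 in all. Log2 was taken with no pseudocount, as no value was 0.

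Knockout minus wild type was fitted with limma 3.58.1 (lmFit, eBayes with an intensity trend) in R 4.3.3, two-sided, adjusted by Benjamini-Hochberg over all tested probe sets, threshold 0.05. The fit was also run on simulated arrays with independent noise at each probe set. These held no effect shared across an array, such as that of bacterial RNA, so they cannot show how the fit deals with one. Intervals are 95% confidence intervals from the fit, and the number of arrays limits their precision. The brightest tested probe set stood for a gene. The text names all PDGF probe sets, Carm1, the 2 genes of smallest p of each of the 15 lists, and the 2 genes most correlated with each PDGF gene. Sftpc and the neighbours Kit, Kdr and Csf1r were named after their values were seen. Members and lists were chosen with earlier results of these data known. Alternatives covered normalization, an added 32, the filter, the variance model, sex, bacterial RNA, a replicate block and each array left out.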

Additional observations from a re-analysis of the deposited data

How the results depend on the processing

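No PDGF probe set passed the adjusted threshold in limma under any of the 17 alternative fits, and between 3 and 5 had an unadjusted p under 0.05. The lower signal of both Pdgfa probe sets, of both tested Pdgfd probe sets and of Pdgfra 1421917_at kept its direction under every alternative run. So did other probe sets whose groups overlapped, namely Pdgfb 1450414_at and Pdgfra 1438946_at, both lower, and both Pdgfrb probe sets, which were higher. Keeping a direction thus did not set apart the probe sets whose groups did not overlap. Neither tested Pdgfd probe set, nor Pdgfra 1438946_at, has a value under the filter at the 60th percentile. Directions turned at Pdgfb 1450413_at, at both Pdgfc probe sets and at Pdgfra 1421916_at. Pdgfb 1450413_at was at −0.0016 after quantile normalization and −0.078 with bacterial RNA as a term or on the arrays without it, and ran from −0.28 to 0.34 with 1 array left out. With 1 array left out, Pdgfc 1449351_s_at ran from −0.24 to 0.21, Pdgfc 1419123_a_at from −0.011 to 0.46 and Pdgfra 1421916_at from −0.14 to 0.20. The cause was not tested.

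Over all tested probe sets, 8 passed in the setting used. The number was 0 without an intensity trend, 40 with robust variance, 4 with sex as a term, 2 with bacterial RNA as a term, 3 on the arrays without that RNA and from 0 to 13 with 1 array left out. On the 4 female arrays alone, an alternative chosen after seeing the data, it was 0, with 2424 at an unadjusted p under 0.05. With the replicate number as a block it was 0, with 3054 at an unadjusted p under 0.05, and 3287 without a trend. Deviations of same-numbered arrays correlated at −0.14, −0.38 and −0.0056, so the numbers were not taken as pairs. The block changed no PDGF call, and no array correlated best with its own number in the other genotype. With 3 arrays a group, differences of the size seen at Pdgfa were not resolved from the rest of the table after adjustment.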
